A study of Mus musculus with 6 samples.

Results

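The transcripts of 10 RNA-binding proteins that act in male germ cells around meiosis, Dazl, Boll, Ythdc2, Meioc, Cpeb1, Ybx2, Ybx3, Ddx25, Rbmxl2 and Ptbp2, were followed in mouse testis after loss of SEL1L, a membrane protein of the endoplasmic reticulum that serves as the adaptor of the HRD1 ubiquitin ligase in ER-associated degradation. The genes were taken by name, matched through GENCODE mouse release M21 symbols to Ensembl identifiers, and all 10 were found among the 55536 genes counted and among the 21465 genes that had enough reads to be tested. Poly(A)+ RNA came from whole testes of 3 KOStra8 and 3 HETStra8 littermate mice at 7 weeks of age, with 1 library per mouse. KOStra8 mice have 1 floxed and 1 deleted Sel1L allele and the transgene Stra8-Cre, whose Cre recombinase is driven by the promoter of a male germ cell gene. The deposited design calls the HETStra8 mice heterozygous, gives them a floxed and a deleted allele and mentions no Cre, whereas the study's text also counts floxed/wild-type carriers of Stra8-Cre as HETStra8, and the genotype of each mouse is not given. This Cre is described as only partly active in spermatogonia, and Sertoli cells are not its target. A whole KOStra8 testis therefore still contains cells that keep the floxed Sel1L allele beside the deleted one.

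Germ cells rely on RNA-binding proteins because transcription and translation are far apart in time during spermatogenesis. DAZL and BOLL, both of the DAZ family, bind 3′ untranslated regions and promote translation, DAZL from spermatogonia and early spermatocytes onward and BOLL later in meiosis. YTHDC2 is an RNA helicase with a YTH domain and works with its partner MEIOC to let germ cells leave the mitotic programme and progress through meiotic prophase. CPEB1 binds the cytoplasmic polyadenylation element of mRNAs and controls the length of their poly(A) tails. YBX2 and YBX3, known as MSY2 and MSY4, are cold shock domain proteins that package stored mRNAs in spermatocytes and round spermatids, and DDX25, or GRTH, is a testicular RNA helicase required for the completion of spermatid development. RBMXL2 and PTBP2 are nuclear regulators of splicing in spermatocytes.

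The 10 transcripts differ widely in base composition, a property along which the fold changes of all genes were ordered in these libraries, so a stretch of coding sequence is shown for 4 genes toward both ends of that range. Each is the middle 90 bases of the longest coding exon in the longest protein-coding GENCODE M21 transcript, read 5′ to 3′ on the transcribed strand of GRCm38, with G and C in capitals. The stretches lie in exon 2 of Dazl (chr17:50289121-50289210, − strand), exon 8 of Boll (chr1:55304518-55304607, − strand), exon 5 of Ybx2 (chr11:69939971-69940060, + strand) and the only exon of Rbmxl2 (chr7:107210042-107210131, + strand).
Dazl: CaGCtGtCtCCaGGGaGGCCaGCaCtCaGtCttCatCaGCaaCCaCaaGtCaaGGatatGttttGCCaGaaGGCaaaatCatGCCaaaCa
Boll: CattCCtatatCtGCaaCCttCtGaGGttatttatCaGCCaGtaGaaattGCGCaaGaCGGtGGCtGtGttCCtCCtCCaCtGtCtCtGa
Ybx2: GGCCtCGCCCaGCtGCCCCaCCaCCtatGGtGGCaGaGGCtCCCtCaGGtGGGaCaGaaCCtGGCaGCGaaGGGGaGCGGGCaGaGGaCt
Rbmxl2: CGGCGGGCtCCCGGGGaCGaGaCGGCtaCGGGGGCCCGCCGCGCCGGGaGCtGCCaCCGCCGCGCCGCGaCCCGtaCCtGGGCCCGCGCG
Of the 90 bases, 44 are G or C in Dazl, 42 in Boll, 62 in Ybx2 and 77 in Rbmxl2. Over whole transcripts the GC content was 37.0% in Dazl, 34.6% in Boll, 63.4% in Ybx2 and 66.8% in Rbmxl2, so that the coding stretches of Dazl and Boll lie above the average of their transcripts.

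The promoters do not divide in this way. The set of RefSeq (GRCm38.p6) promoters used here had an entry for 9 of the 10 genes, covering 250 bases before to 50 bases after the transcription start. The GC content of these windows lay between 68.3% and 78.0% for all 9 genes, against a median of 52.7% over all RefSeq promoter windows. The 250 bases before the start are shown for Meioc (chr11:102665335-102665584, + strand), Dazl (chr17:50293621-50293870, − strand) and Boll (chr1:55362729-55362978, − strand), which were highest relative to HETStra8, and for Ybx2 (chr11:69935649-69935898, + strand), which was lower. Capitals mark the E-box CACGTG, the E2F site GCGGGAA and the CCAAT box CCAAT on either strand.
Meioc promoter: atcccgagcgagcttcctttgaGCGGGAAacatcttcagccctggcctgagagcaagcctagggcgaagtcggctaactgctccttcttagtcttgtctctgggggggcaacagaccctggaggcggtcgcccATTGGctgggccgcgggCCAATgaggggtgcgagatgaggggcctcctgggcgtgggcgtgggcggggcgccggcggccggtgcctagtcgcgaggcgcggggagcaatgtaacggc
Dazl promoter: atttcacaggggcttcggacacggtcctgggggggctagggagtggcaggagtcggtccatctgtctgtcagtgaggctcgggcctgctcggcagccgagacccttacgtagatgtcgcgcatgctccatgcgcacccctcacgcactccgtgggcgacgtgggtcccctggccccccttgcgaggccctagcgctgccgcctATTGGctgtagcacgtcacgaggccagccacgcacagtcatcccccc
Boll promoter: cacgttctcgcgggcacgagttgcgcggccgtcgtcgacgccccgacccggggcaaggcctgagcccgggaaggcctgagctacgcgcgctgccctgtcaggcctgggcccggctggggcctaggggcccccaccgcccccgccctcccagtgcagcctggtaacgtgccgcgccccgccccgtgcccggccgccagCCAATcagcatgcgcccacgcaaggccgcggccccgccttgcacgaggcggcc
Ybx2 promoter: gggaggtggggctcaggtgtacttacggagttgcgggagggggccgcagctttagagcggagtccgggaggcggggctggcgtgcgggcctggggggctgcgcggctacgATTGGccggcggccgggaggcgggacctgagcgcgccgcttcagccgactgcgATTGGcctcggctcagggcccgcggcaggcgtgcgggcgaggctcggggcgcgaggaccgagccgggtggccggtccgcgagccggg
A CCAAT box was present in all 4 of these promoters, with 2 copies each in Meioc and Ybx2, and also in Ddx25 and Rbmxl2, against 37.4% of 32851 RefSeq promoter windows. The E2F letters occurred in Meioc and, after the transcription start, in Boll, and in 4.6% of all windows. An E-box occurred in Cpeb1, Ddx25 and Rbmxl2 and in 7.15% of all windows. The 5 motifs searched, which also included TGACGTCA and TATAAA, are not contained in each other, and a match only describes the sequence. The shares of all windows were not matched for GC content.

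Library totals lay between 28875108 and 36526695 counts, and the biological coefficient of variation common to all genes was 0.160. Counts were scaled to CPM, the counts of a gene relative to the TMM-scaled library size, and the groups were compared with edgeR's quasi-likelihood test over all genes tested, with Benjamini-Hochberg (BH) adjustment and a cutoff of 0.01 on the adjusted p. Sel1l itself was at 49.3, 47.6 and 42.4 CPM in HETStra8 mice and 24.2, 22.0 and 20.3 CPM in KOStra8 mice, 47.7% of the HETStra8 mean, and fell by 1.07 on the log2 scale (SE 0.104, edgeR BH-adjusted p = 0.00061). Stra8, whose promoter drives the Cre, was at 11.0 ± 1.94 CPM in HETStra8 and 10.5 ± 0.371 CPM in KOStra8 (SD, n = 3). HETStra8 mouse 3 had the highest CPM of its group in 36.1% of all tested genes and in 7 of the 10 genes studied here.

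The 10 genes covered a wide range of abundance in the testis. Expressed per length, as mean CPM per kb of exon over the 6 mice, Ybx2 (882) and Ybx3 (544), which encode the mRNA packaging proteins, stood far above the helicase gene Ddx25 (66.9). Boll (36.7), Rbmxl2 (34.9), Meioc (33.8) and Dazl (29.3) formed a middle group, and Ptbp2 (10.9), Ythdc2 (4.10) and Cpeb1 (2.84) were lowest. Most neighbours in this order did not overlap within either group of mice. The exceptions were Boll and Rbmxl2, and Meioc and Dazl, both among HETStra8 mice. Rbmxl2 and Meioc did not overlap in either group but changed places. Rbmxl2 lay above Meioc in HETStra8 (34.7 to 39.6 against 23.7 to 33.6) and below it in KOStra8 (29.5 to 35.6 against 38.0 to 41.9). The order within the middle group is therefore not settled by these mice.

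**Figure D1:**
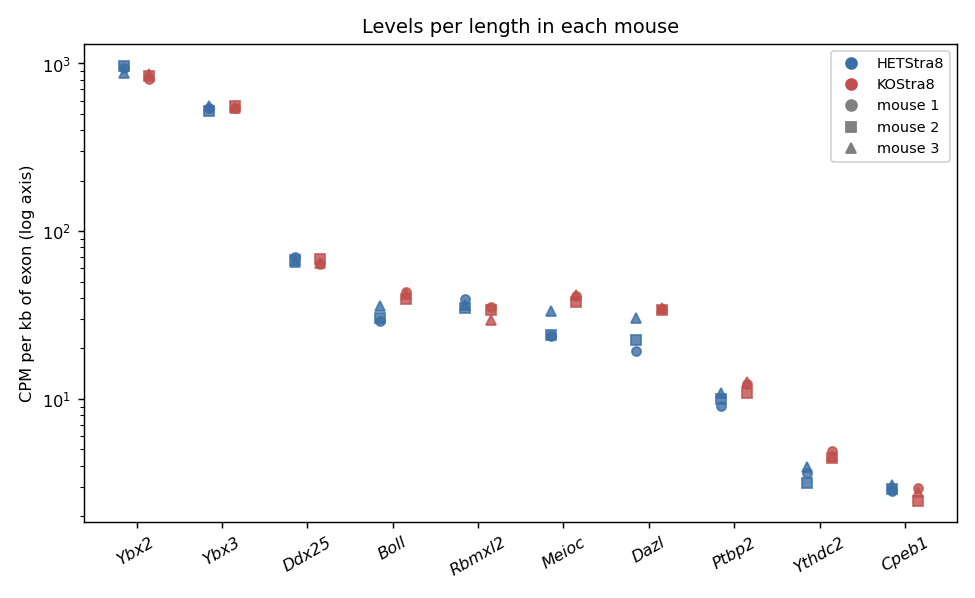
CPM per kb of exon on a log axis for each of the 10 genes, ordered by the mean over all mice, with 1 symbol per mouse (circles, squares and triangles for mice 1, 2 and 3, HETStra8 in blue and KOStra8 in red). Ybx2 lies between 805 and 969 and Cpeb1 between 2.48 and 3.06, and the 4 genes from Boll to Dazl share a band between 19.4 and 43.2.

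Meioc (ENSMUSG00000051455, GRCm38 chr11:102663716-102682237, + strand) showed the largest difference between the genotypes. It was measured at 109, 112 and 155 CPM in HETStra8 mice 1, 2 and 3 and at 191, 175 and 193 CPM in KOStra8 mice 1, 2 and 3. All KOStra8 mice lay above all HETStra8 mice, and HETStra8 mouse 3 stood well above the other two of its group. The mean went from 125 ± 25.9 to 186 ± 9.88 CPM (SD, n = 3), which is 0.57 on the log2 scale (SE 0.124, 95% interval 0.30 to 0.85). The edgeR quasi-likelihood test gave an unadjusted p of 0.000798 and a BH-adjusted p of 0.135, which does not pass the cutoff. In whole testis RNA, more cells that express a gene and more RNA per cell cannot be told apart, here and for every gene below.

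Ythdc2 (ENSMUSG00000034653, chr18:44827746-44889724, + strand), which encodes the partner helicase of MEIOC, was measured at 32.3, 27.9 and 34.9 CPM in HETStra8 mice and 43.3, 39.4 and 40.5 CPM in KOStra8 mice. The groups again did not overlap, with the KOStra8 mice above. The means were 31.7 ± 3.55 and 41.1 ± 1.98 CPM (SD, n = 3), and the log2 fold change of 0.37 (SE 0.103, 95% interval 0.15 to 0.59) had an unadjusted p of 0.00264 and a BH-adjusted p of 0.193 in edgeR's quasi-likelihood test. With 3 mice per group, an exact two-sided permutation test has a smallest possible p of 0.1, which it gave for Meioc, Ythdc2 and each further gene whose groups did not overlap.

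Both DAZ family genes had higher levels in KOStra8 testes before correction for base composition, without passing the adjusted cutoff. Dazl (ENSMUSG00000010592, chr17:50279395-50293636, − strand) was at 74.2, 85.9 and 117 CPM in HETStra8 mice and 131, 130 and 133 CPM in KOStra8 mice. The KOStra8 mice were nearly identical to each other and above all HETStra8 mice, which were spread widely with mouse 3 on top. The mean went from 92.3 ± 22.0 to 132 ± 1.38 CPM (SD, n = 3), with a log2 fold change of 0.51 (SE 0.142, 95% interval 0.19 to 0.83), an unadjusted p of 0.0052 and a BH-adjusted p of 0.231 by edgeR. Boll (ENSMUSG00000025977, chr1:55248658-55363469, − strand) was at 103, 106 and 127 CPM in HETStra8 mice and 152, 139 and 148 CPM in KOStra8 mice. These groups did not overlap either, and the mean of 112 ± 12.8 CPM in HETStra8 stood against 146 ± 6.36 CPM in KOStra8 (SD, n = 3). Its log2 fold change was 0.39 (SE 0.0878, 95% interval 0.20 to 0.57), with an unadjusted p of 0.000598 and, at 0.131, the lowest BH-adjusted p of the 10 genes in edgeR's test. With GC content and length corrected, the value of Boll turned to −0.071, or to −0.16 with its coding transcript.

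**Figure D2:**
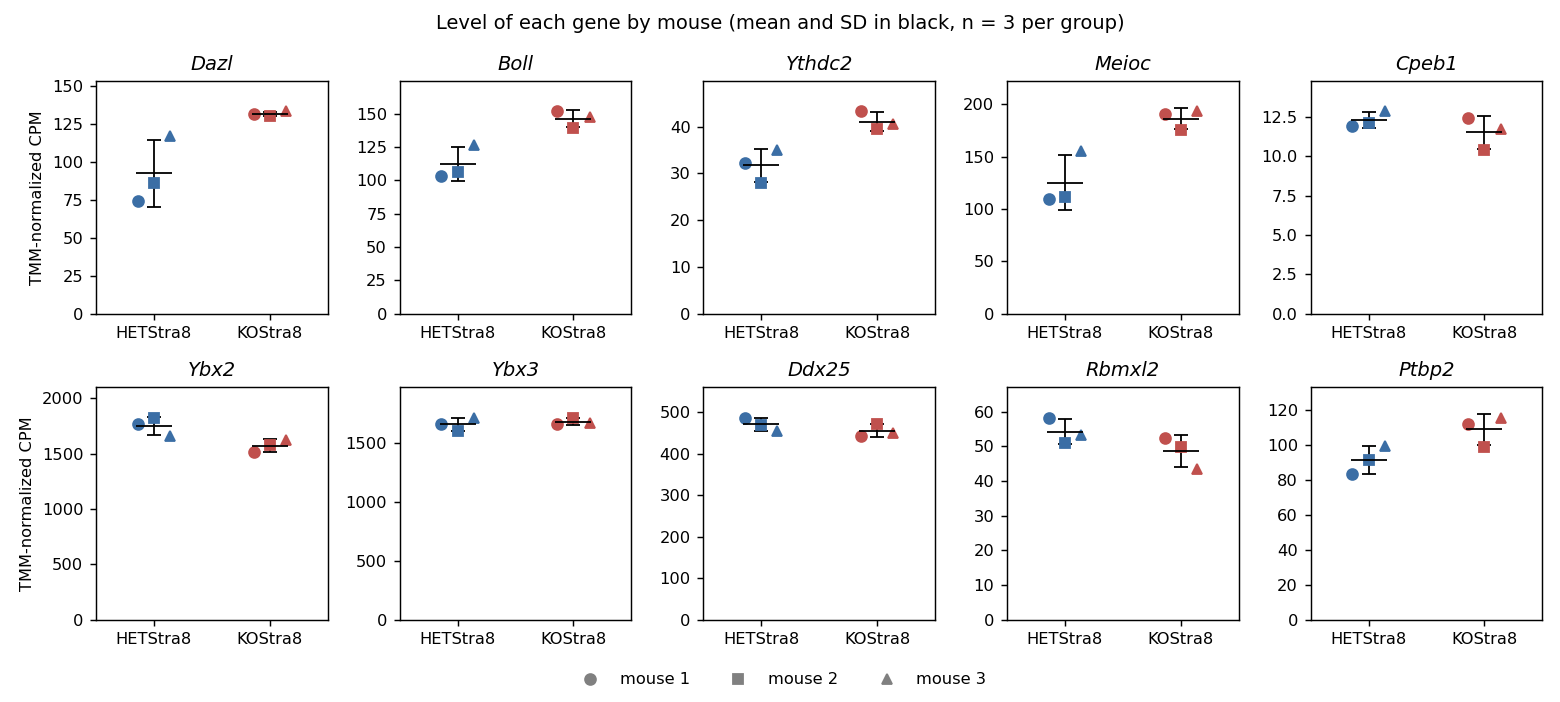
TMM-normalized CPM of each gene, 1 panel per gene with its own axis from 0, 1 symbol per mouse (circle, square and triangle for mice 1, 2 and 3), and the mean with SD in black (n = 3 per group). Dazl, Boll, Ythdc2 and Meioc have all KOStra8 mice above all HETStra8 mice, Ybx2 has them below, and the groups overlap for the other 5 genes.

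Of the splicing regulators, Ptbp2 (ENSMUSG00000028134, chr3:119718742-119784466, − strand) was at 83.6, 91.3 and 99.1 CPM in HETStra8 mice and 112, 99.0 and 116 CPM in KOStra8 mice. The lowest KOStra8 mouse, mouse 2, lay just under the highest HETStra8 mouse, mouse 3. The log2 fold change was 0.25 (SE 0.0889, 95% interval 0.064 to 0.45), with an unadjusted p of 0.0124 and a BH-adjusted p of 0.286 by edgeR. Rbmxl2 (ENSMUSG00000073894, chr7:107209445-107210916, + strand), a single-exon gene, was at 58.3, 51.0 and 53.4 CPM in HETStra8 mice and 52.3, 49.9 and 43.4 CPM in KOStra8 mice. KOStra8 mouse 1 lay inside the HETStra8 range, and the log2 fold change of −0.16 (SE 0.0962, 95% interval −0.37 to 0.046) had an unadjusted p of 0.118 by edgeR.

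The genes of mRNA packaging and storage showed smaller differences. Ybx2 (ENSMUSG00000018554, chr11:69935796-69941605, + strand) was at 1765, 1828 and 1664 CPM in HETStra8 mice and 1518, 1578 and 1627 CPM in KOStra8 mice, and every KOStra8 mouse lay under every HETStra8 mouse by a narrow margin. The means were 1752 ± 82.6 and 1575 ± 54.5 CPM (SD, n = 3), and the log2 fold change of −0.15 (SE 0.0621, 95% interval −0.29 to −0.021) had an unadjusted p of 0.0262 and a BH-adjusted p of 0.349 in edgeR's test. Ybx3 (ENSMUSG00000030189, chr6:131364855-131388476, − strand) ranged from 1602 to 1714 CPM in HETStra8 and from 1661 to 1719 CPM in KOStra8, with a log2 fold change of 0.021 (95% interval −0.11 to 0.15). Ddx25 (ENSMUSG00000032101, chr9:35536647-35558528, − strand) ranged from 456 to 488 CPM in HETStra8 and from 444 to 473 CPM in KOStra8, with a log2 fold change of −0.047 (95% interval −0.19 to 0.092). The value of Ybx2 lies inside the interval of Ddx25 and below that of Ybx3.

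Cpeb1 (ENSMUSG00000025586, chr7:81347026-81455465, − strand), which encodes the cytoplasmic polyadenylation factor, was the least abundant of the 10 transcripts. It was at 11.9, 12.1 and 12.8 CPM in HETStra8 mice and 12.4, 10.4 and 11.7 CPM in KOStra8 mice, and the ranges overlapped. The log2 fold change was −0.095 with an interval of −0.38 to 0.19, wider than that of any of the other genes but Dazl. The element that CPEB1 binds, searched as TTTTAT on the transcribed strand in the last 100 bases of the longest coding transcript, occurred in Ybx2, Ddx25 and Rbmxl2 and in 12.9% of 21852 protein-coding genes. The sites are shown with flanking bases, the element in capitals.
Ybx2 3′ site: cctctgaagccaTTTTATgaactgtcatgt
Ddx25 3′ site: caataaagatattaacctTTTTATtgaaaa
Rbmxl2 3′ site: aTTTTATgcatttgagaggcaaaaaaaaag
The element starts 62 bases before the transcript end in Ybx2, 12 in Ddx25 and 99 in Rbmxl2.

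Counted together, 5 of the 10 genes (Meioc, Dazl, Boll, Ythdc2 and Ptbp2) were higher in KOStra8 at an unadjusted p below 0.05, where 7.13% of all genes tested were, and 1 (Ybx2) was lower, where 5.12% of all genes were. None passed the adjusted cutoff of 0.01 in edgeR's test, which 0.014% of all genes passed as higher and 0.00466% as lower, whereas DESeq2 placed 2 of the 10 below it, Meioc (BH-adjusted p = 0.00084) and Boll (0.009995), as it did 0.61% of all genes as higher. With no filter on low counts, edgeR placed 3 of the 10 below it (Dazl, Boll and Meioc), as it did 0.939% of the genes in that fit as higher. Without overlap between the groups, 4 genes were above and 1 below in KOStra8, against 9.33% and 8.43% of all genes. The median log2 fold change of the 10 genes was 0.14, against −0.0094 over all genes tested.

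HETStra8 mouse 3 weighed on all 5 genes that were higher. On the log2 scale it deviated from its group mean by 0.37 for Dazl, 0.33 for Meioc, 0.18 for Boll, 0.14 for Ythdc2 and 0.12 for Ptbp2, the same direction in which the KOStra8 mice deviated. With that mouse left out, the log2 fold changes were 0.77 for Meioc, 0.73 for Dazl, 0.49 for Boll, 0.46 for Ythdc2 and 0.33 for Ptbp2. The edgeR BH-adjusted p was then 2.0e-05 for Meioc, 7.1e-05 for Dazl and 0.0010 for Boll, so that 3 genes passed the cutoff of 0.01, which 1.91% of the genes in that fit passed as higher, while Ythdc2 (0.0174) and Ptbp2 (0.0405) did not. That fit rests on 2 HETStra8 mice. With any of the other 5 mice left out, 0 of the 10 genes had an edgeR BH-adjusted p below 0.05. Log2 fold changes in those fits went down to 0.48 for Meioc, 0.38 for Dazl, 0.33 for Boll, 0.29 for Ythdc2 and 0.19 for Ptbp2.

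**Figure D3:**
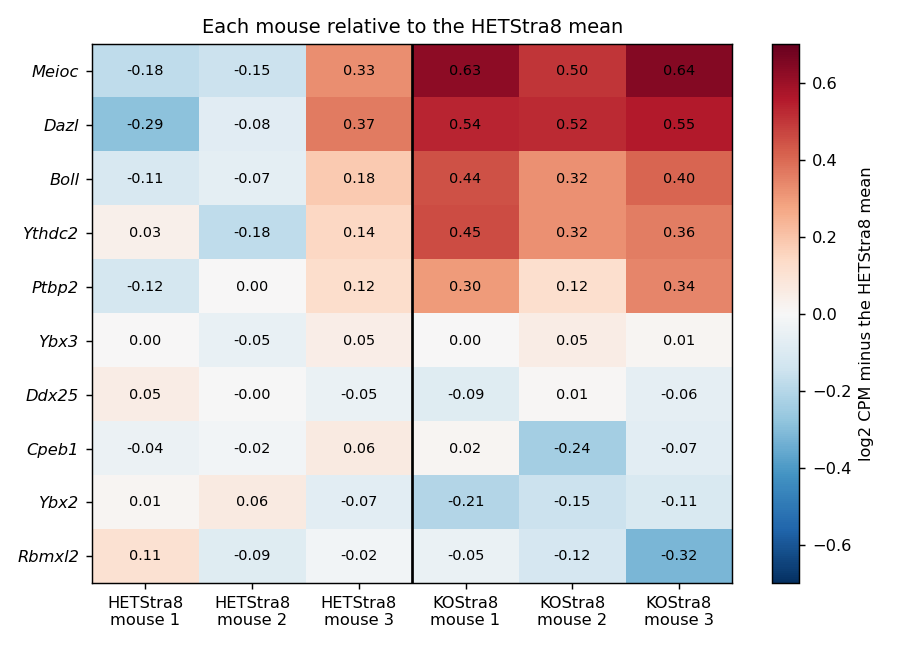
Log2 CPM of each gene in each mouse minus the mean of the 3 HETStra8 mice, with the value printed in each cell and the genes ordered by log2 fold change. HETStra8 mouse 3 deviates upward for Meioc (0.33) and Dazl (0.37), in the direction of the 3 KOStra8 mice, which lie between 0.50 and 0.64 for Meioc and between 0.52 and 0.55 for Dazl.

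Some markers of early meiotic prophase were higher in KOStra8 testes in the same libraries, at an unadjusted p only. The summed level of 6 leptotene and zygotene markers, all of which were tested, was 206, 225 and 357 CPM in HETStra8 mice 1, 2 and 3 and between 462 and 485 CPM in KOStra8 mice. Of the 6, 2 were higher at an unadjusted p below 0.05, against 7.13% of all genes. None passed the adjusted cutoff in edgeR's test, the lowest BH-adjusted p being 0.292. The mean of the sum over KOStra8 mice was 179% of that over HETStra8 mice. The log2 fold changes of the 6 markers ranged from −0.15 to 0.96, with a median of 0.25 and 1 of them below 0. After correction for GC content and length the median was 0.068, with 3 of the 6 above 0. At an unadjusted p below 0.05, 2 of the 6 were then higher, against 4.09% of all genes, and none passed the adjusted cutoff. HETStra8 mouse 3 lay between the groups, as it did for Meioc and Dazl. The sum of 8 Sertoli cell markers was 923 to 1125 CPM in HETStra8 and 768 to 896 CPM in KOStra8, and 3 of the 8 were lower at an unadjusted p below 0.05, against 5.12% of all genes. The summed levels of the markers of undifferentiated and differentiating spermatogonia, late prophase spermatocytes, round spermatids, elongating spermatids, Leydig cells, peritubular myoid cells, macrophages, endothelial cells and blood overlapped between the groups, and 3 epididymis markers were too low to be tested. Among these, 2 of 6 elongating spermatid, 1 of 5 Leydig and 1 of 4 macrophage markers were lower at an unadjusted p below 0.05. Likewise 1 of 6 late prophase markers was higher. The shares of all genes were 5.12% lower and 7.13% higher, and no cell type marker passed the adjusted cutoff in edgeR's test. The Leydig sum in KOStra8 was 79.6% of that in HETStra8. All tested Sertoli, Leydig, myoid, macrophage, endothelial and blood markers had negative fold changes, whereas 10405 of the 21465 genes tested had positive ones. After correction for GC content and length, 2 of 8 Sertoli, 1 of 3 myoid and 1 of 4 macrophage markers were above 0. At an unadjusted p below 0.05, 2 Sertoli, 1 Leydig, 1 round spermatid and 1 elongating spermatid marker were then lower, against 3.5% of all genes. Of the elongating spermatid markers 1 was then higher, against 4.09%, and no macrophage or late prophase marker was called. The median log2 fold change moved from −0.23 to −0.11 for Sertoli and from −0.30 to −0.25 for Leydig markers. The part of early spermatocytes in the levels of the 10 genes was not tested.

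The differences among the 10 genes followed the base composition of their transcripts. In order of the GC content of the longest coding transcript, Boll (34.6%), Dazl (37.0%), Meioc (38.5%), Ythdc2 (42.0%) and Ptbp2 (43.1%) were the 5 genes that were higher, and Ddx25 (46.8%), Cpeb1 (48.2%), Ybx3 (57.2%), Ybx2 (63.4%) and Rbmxl2 (66.8%) were not. Across the 10 genes the Spearman correlation of log2 fold change with GC content was −0.79 for the longest transcript and −0.92 for the longest coding transcript, against −0.46 and −0.47 across the tested genes (21457 with a value for the longest transcript), given as descriptions since genes of the same libraries are not independent. When all genes were split by GC content into 5 bins of equal size, in the lowest bin the median log2 fold change was 0.21 and 23.3% of genes were higher at an unadjusted p below 0.05, while in the highest bin the median was −0.14 and the share 0.769%. Base composition and function cannot be separated by these 10 genes alone.

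**Figure D4:**
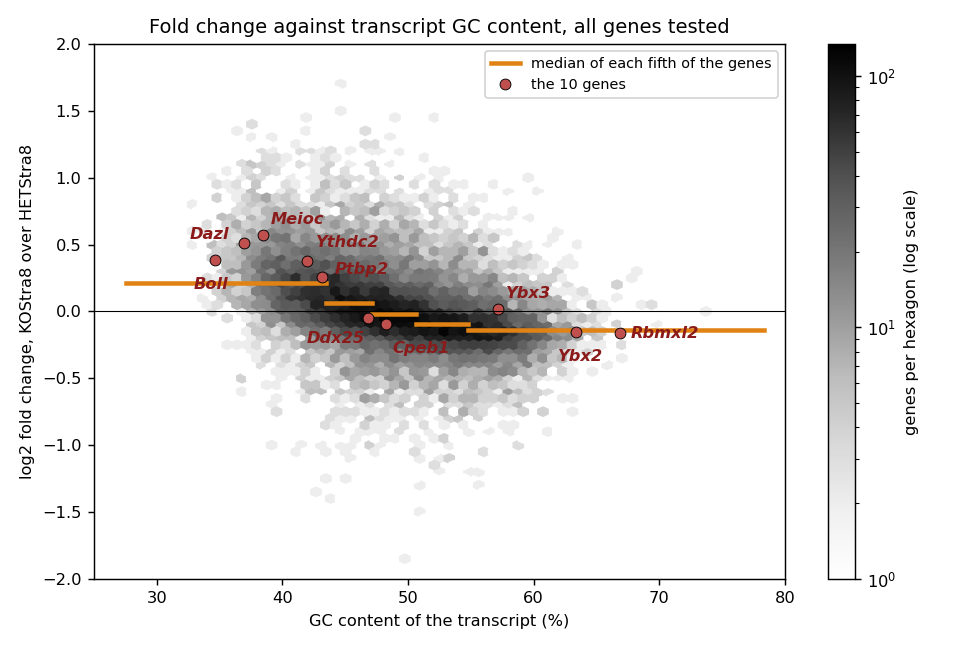
Log2 fold change of KOStra8 over HETStra8 against the GC content of the transcript in percent, with grey hexagons for the number of tested genes (longest transcript), orange lines for the median of each of the 5 GC bins and red points for the 10 genes (longest coding transcript). Medians go from 0.21 in the lowest bin to −0.14 in the highest, and Boll, Dazl, Meioc, Ythdc2 and Ptbp2 lie at the low-GC end. 27 genes beyond the vertical axis are not drawn.

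When counts were corrected for the GC content and length trend of each library, the values of the 5 genes that were higher became smaller or changed sign. Meioc kept a log2 fold change of 0.30 (95% interval 0.14 to 0.46, unadjusted p = 0.00138, edgeR BH-adjusted p = 0.272) and Dazl one of 0.19 (unadjusted p = 0.0243 by edgeR), while Ythdc2 had 0.18 at an unadjusted p of 0.0732. Boll turned to −0.071, with an interval of −0.23 to 0.087. Ptbp2 turned to −0.23 when the correction used its longest transcript, which retains an intron and holds 34.2% GC, and to 0.12 when it used its longest coding transcript. Ybx2 was at −0.019 after correction and Ybx3 at 0.16 (unadjusted p = 0.0128 by edgeR), with the same value in both versions of the correction.

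**Figure D5:**
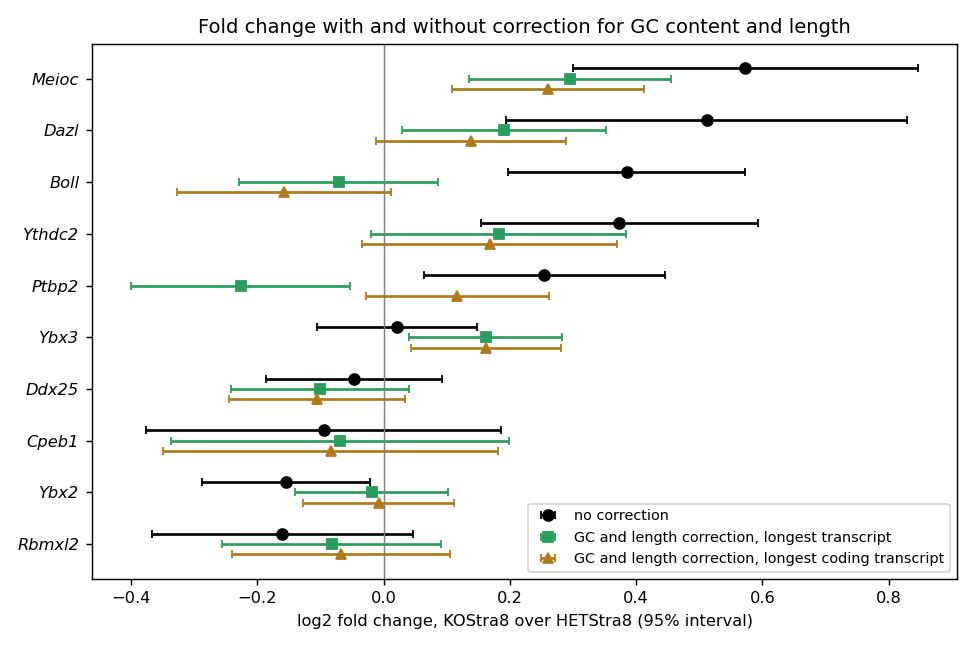
Log2 fold change of KOStra8 over HETStra8 with its 95% interval for each gene, without correction (black circles) and with correction for GC content and length taken from the longest transcript (green squares) or the longest coding transcript (ochre triangles). Meioc stays above 0 in all 3 (0.57, 0.30 and 0.26), Boll goes from 0.39 to −0.071 and −0.16, and Ptbp2 changes sign only with the longest transcript.

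After correction 3 of the 10 genes (Meioc, Dazl and Ybx3) were higher at an unadjusted p below 0.05, against 4.09% of all genes, and 1 (Ptbp2) was lower, against 3.5%. With the longest coding transcript, an alternative added after seeing the data, Meioc and Ybx3 were higher, against 4.01% of all genes, and none of the 10 was lower. The median of the 10 genes was −0.044 with the longest transcript and 0.054 with the coding transcript, against 0.14 without correction. With the correction and without HETStra8 mouse 3, also added after seeing the data, Meioc alone of the 10 passed the adjusted cutoff of 0.01 in edgeR's test, as did 0.512% of the genes in that fit as higher, and none of the 10 had an adjusted p below 0.05 with any of the other 5 mice left out.

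Other RNA regulators of germ cells were read from the same fit. Of a list of 42 genes for RNA-binding proteins, m6A methylation enzymes and readers, and poly(A) factors, 41 were tested, and 11 were higher and 1 was lower at an unadjusted p below 0.05, against 7.13% and 5.12% of all genes, with a median log2 fold change of 0.073 and none past the adjusted cutoff in edgeR's test. Those with the lowest p were Ythdc1, a nuclear reader of m6A (0.37, unadjusted p = 0.00305), Srsf10, a splicing factor (0.33, 0.00363), Ptbp3, a paralogue of Ptbp2 (0.34, 0.00435), and Rbm46, a germ cell RNA-binding protein required for meiosis (0.43, 0.00691). Ptbp1, the paralogue of Ptbp2 that is expressed in most cell types, was the gene that was lower (−0.21, unadjusted p = 0.0215 by edgeR), at 153, 153 and 131 CPM in HETStra8 mice and 128, 125 and 125 CPM in KOStra8 mice. Hence Ptbp2 and Ptbp3 were higher and Ptbp1 lower at an unadjusted p before correction for GC content, and after it Ptbp3 was at 0.026, Ptbp1 at −0.074 and Ptbp2 at −0.23 (unadjusted p = 0.0141 by edgeR), or at 0.12 with its coding transcript. After correction the median of the list was −0.015, with Srsf10 alone higher and Cpeb3 and Paip2 lower at an unadjusted p below 0.05, against 4.09% and 3.5% of all genes, the last 2 named after their values were seen.

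Transcripts known to be bound or controlled by some of the 10 proteins had a median near that of all genes. The list held none chosen for RBMXL2 or PTBP2, and the storage and translation of these mRNAs were not measured. Of 15 such genes, which included protamine and transition protein genes and other mRNAs stored for spermatids, none was higher and 1 was lower at an unadjusted p below 0.05, against 7.13% and 5.12% of all genes, with a median log2 fold change of −0.0067 and none past the adjusted cutoff in edgeR's test. The gene that was lower was Ace, whose testicular form is made in spermatids, at 769, 760 and 726 CPM in HETStra8 mice and 680, 661 and 676 CPM in KOStra8 mice (log2 fold change −0.16, unadjusted p = 0.0203 by edgeR, −0.033 after correction). After correction Tnp2 was higher and Pgk2 and Hmgb2 were lower at an unadjusted p below 0.05, against 4.09% and 3.5% of all genes. All 3 are named after their values were seen. Sycp1 and Sycp3, synaptonemal complex genes whose mRNAs are known targets of CPEB1 or DAZL, had the largest values of the list and are named after those values were seen. Sycp1 was at 70.9, 120 and 186 CPM in HETStra8 mice and 261, 247 and 228 CPM in KOStra8 mice, without overlap between the groups and with the HETStra8 mice far apart (log2 fold change 0.97, SE 0.386, unadjusted p = 0.0615 by edgeR). Sycp3 was at 76.1, 91.8 and 145 CPM in HETStra8 mice and 128, 153 and 158 CPM in KOStra8 mice, and its groups overlapped (0.49, SE 0.267, unadjusted p = 0.127 by edgeR). After correction Sycp1 was at 0.57 and Sycp3 at 0.034. For both genes HETStra8 mouse 3 was the highest of its group, as for Dazl.

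Sequence shared with other genes was rare. None of the 10 genes shares exon sequence with an overlapping gene in GENCODE M21, and of all 50-base sequences of their transcripts 0.804% in Ythdc2 and 0.141% in Rbmxl2 also occur in another gene, with none in the other 8.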

How the data were processed

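Testis RNA of 3 KOStra8 and 3 HETStra8 mice was sequenced with 1 directional poly(A)+ library per mouse. The deposited values, 1 file for each mouse, are unnormalized counts, whole numbers of reads assigned by the authors to each of 55536 genes. The submitters' processing notes name FastQC, Trimmomatic, STAR 2.7.1a, Picard 2.20.4, StringTie 2.0.4, featureCounts 1.6.0, HTSeq and the build GRCm38 (mm10); which tool made the counts and its strand setting are not given in the sources used here. The 6 libraries are separate mice, so each p-value sets the group difference against the spread between mice, estimated partly from all genes. Litter was not in the model. Since the Cre status of each HETStra8 mouse is not given, effects of Cre and of Sel1L loss cannot be told apart.

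The groups were compared in edgeR 4.0.16 under R 4.3.3, by a two-sided quasi-likelihood F test (robust fit, genotype alone in the model) after filterByExpr and TMM scaling, with BH adjustment over 21465 genes. CPM refer to TMM-scaled library sizes, with a prior count of 2 for log2 values. DESeq2 1.42.0 and limma-voom 3.58.1, other scalings and filters, the replicate number as a block, offsets from a loess curve of counts on GC content and transcript length per library (span 0.3, genes above a log2 CPM of 2), and leaving out each mouse were alternatives. An adjusted p was never computed over a gene list alone. The steps were tested on simulated data. Annotation, exon and transcript sequences are those of GENCODE M21. Promoters are from a set of RefSeq promoters, GRCm38.p6, that held no entry for Ythdc2.

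The 10 genes and all lists were chosen with earlier results of these data known. Besides the 10 genes, Sel1l and Stra8, the genes named are up to 4 in each direction with the lowest unadjusted p below 0.05 from the list of other RNA regulators and from the list of bound transcripts, and any other gene is said to have been named after its values were seen.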

Additional observations from a re-analysis of the deposited data

How the results depend on the processing

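Over 2-fold at an adjusted p below 0.01, edgeR called 1 gene higher and 1 lower; DESeq2 called 12 and 2, and the fit without a filter on low counts 22 and 17. Leaving out each mouse gave 1 to 42 higher, the largest without HETStra8 mouse 3, and 0 to 4 lower. Of the 10 genes, 5 were higher at an unadjusted p below 0.05, and 4 to 5 when each mouse was left out; the correction for GC content and length gave 3, its version from the longest coding transcript 2, and the correction with each mouse left out 1 to 3. The 1 that was lower, Ybx2, was not called by DESeq2 (0) or with coding transcripts (0), nor with the correction from the longest transcript, where the 1 gene that was lower was Ptbp2. Leaving out each mouse gave 0 to 1. The median log2 fold change of the 10 genes moved from 0.14 to −0.044 with the correction, 0.054 with coding transcripts, 0.11 to 0.19 when each mouse was left out and −0.049 to 0.0040 with both. That of the other RNA regulators moved from 0.073 to −0.015 with the correction and 0.046 to 0.13 when each mouse was left out, and that of the bound transcripts from −0.0067 to between −0.046 and 0.068.

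Sign changes came mostly with the correction. Boll was at −0.071 with it, −0.16 with coding transcripts and −0.14 to −0.024 with each mouse left out besides, both added after seeing the data, against 0.33 to 0.49 when each mouse was left out without it. Ptbp2 was at −0.23, and at −0.32 to −0.18 with each mouse left out besides, against 0.19 to 0.33 without it. Ybx2, at −0.18 to −0.12 when each mouse was left out, was at 0.014 and 0.013 with the correction and without HETStra8 mouse 2 or KOStra8 mouse 2. Ybx3 was at −0.0043 without HETStra8 mouse 2, and at 0.055 without HETStra8 mouse 3, or 0.22 with the correction besides. The cause of these changes was not tested. Other scalings, a stricter filter and limma-voom changed no call of the 10 genes.

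The deviations of same-numbered mice had correlations of −0.060, −0.052 and 0.108. Whether equal numbers mark paired mice is not given, and correlations from 3 mice per group cannot settle it. With the replicate block, 4 genes were over 2-fold higher, and of the 10 genes 0 were lower at an unadjusted p below 0.05, 0 passed an adjusted p of 0.01, and Dazl (0.0405) and Meioc (0.0102) had the lowest edgeR BH-adjusted p. With the block and the correction together, 3 were higher, the medians were −0.045 for the 10 genes and −0.013 for the other RNA regulators, and Boll was at −0.070 and Ptbp2 at −0.22. With 3 mice per group, small differences such as that of Cpeb1 could not be resolved.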

Other observations

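The list of other RNA regulators holds 9 genes of m6A, the methyl mark that YTHDC2 reads, and all are named here after their values were seen. Ythdf3, a cytoplasmic reader, was at 29.7, 31.9 and 38.0 CPM in HETStra8 mice and 39.2, 41.1 and 42.0 CPM in KOStra8 mice (log2 fold change 0.30, unadjusted p = 0.0131 by edgeR). Wtap, a subunit of the methyltransferase complex, was at 15.5, 16.4 and 14.8 CPM against 19.5, 19.2 and 18.2 CPM (0.28, unadjusted p = 0.0216 by edgeR). For these genes and for Ythdc1 the lowest KOStra8 mouse exceeded the highest HETStra8 mouse, as in 9.33% of all genes tested. Each was also higher at an unadjusted p below 0.05, against 7.13% of all genes. The edgeR BH-adjusted p was 0.291 for Ythdf3, 0.334 for Wtap and 0.195 for Ythdc1. With GC content and length corrected, Ythdf3 was at −0.0015, Wtap at 0.041 and Ythdc1 at 0.029. The groups overlapped for the writers Mettl3 (−0.31) and Mettl14 (0.11), the demethylases Alkbh5 (−0.029) and Fto (−0.11), and the readers Ythdf1 (−0.048) and Ythdf2 (−0.12), none of which had an unadjusted p below 0.05.

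Relatives of the 10 genes gave these values, again chosen after they were seen. Of the paralogues of Cpeb1, Cpeb2 was at −0.044, Cpeb3 at −0.15 and Cpeb4 at 0.22 (unadjusted p = 0.0243 by edgeR) on the log2 scale, and at −0.081, −0.17 and −0.063 after the correction. Xrn1, the exonuclease that associates with YTHDC2, was at 22.5, 27.1 and 26.9 CPM in HETStra8 mice and 32.8, 25.1 and 33.6 CPM in KOStra8 mice, with overlap between the groups (0.26, unadjusted p = 0.0566 by edgeR). Ybx1, the widely expressed paralogue of Ybx2 and Ybx3, was at 0.016, and Rbmx, the X-linked ancestor of Rbmxl2, at 0.26 (unadjusted p = 0.162 by edgeR), both with overlap between the groups.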
